A study of Mus musculus with 6 samples.

Results

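The 10 genes described here were Il1a, Il1b, Il1rn, Il1r1, Il1r2, Il1rap, Nlrp3, Casp1, Il18 and Il1rl1. They were taken by symbol from the 32285 genes listed in the deposited count matrices, and all 10 were found there. They comprise 3 ligands of the interleukin-1 family, the receptor antagonist and the decoy receptor, 3 other receptor chains, and the sensor and protease of an inflammasome. Their transcripts were followed through 6 single-cell libraries of mouse heart. The non-cardiomyocytes came from digested ventricles of male mice aged 8 to 12 weeks. Cells of 4 mice were pooled for each library, and every group consisted of 1 library. WT mice were of strain C57BL/6JRj and KO mice were B6.Cg-Trpm4tm1.2-PG, in which the ion channel gene Trpm4 is altered. For each genotype, 1 library was made 24 h after a SHAM operation, 1 was made 24 h after the left anterior descending coronary artery (LAD) was tied off to cause a myocardial infarction, and 1 was made 72 h after the same operation. No SHAM library at 72 h was analysed here. Cells that stained as live (Calcein-AM and DAPI) had been sorted, so the shares of cell types below are shares of sorted cells, not of the heart.

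Interleukin-1 is a central early signal of sterile injury, including infarction. Il1b encodes a precursor that is made mostly by myeloid cells and becomes active only after cleavage, for which the classical route is an inflammasome: the sensor encoded by Nlrp3 assembles with an adaptor and activates the protease encoded by Casp1, which also cleaves the product of Il18. The product of Il1a acts without that cleavage. Both cytokines bind the receptor encoded by Il1r1, which signals with the accessory chain encoded by Il1rap. Il1rn encodes an antagonist that occupies this receptor without signalling, Il1r2 encodes a decoy receptor that binds ligand and lacks a signalling domain, and Il1rl1 encodes ST2, the receptor for interleukin-33, which uses the same accessory chain.

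On GRCm38, in the GENCODE annotation, Il1b lies at chr2:129364570-129371139 and Il1a at chr2:129299610-129309972, both on the minus strand. Il1rn lies on the plus strand of the same chromosome at chr2:24336853-24351494. A group of receptor genes lies close together on the plus strand of chromosome 1, with Il1r2 at chr1:40074079-40125231, Il1r1 at chr1:40225080-40317257 and Il1rl1 at chr1:40429570-40465415. Nlrp3 lies at chr11:59541568-59566956, Il1rap at chr16:26581704-26730117, Casp1 at chr9:5298517-5307265 and Il18 at chr9:50554827-50581840, all on the plus strand. All 10 are annotated as protein coding.

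The 250 bases before the transcription start, from RefSeq on GRCm38.p6, are printed for 4 genes whose level was highest in neutrophils and for Il1r1, whose level was highest in pericytes and fibroblasts. They are read 5′ to 3′ on the gene's strand, ending at the base before the start. Capitals mark matches, on either strand, to 5 motifs: NF-kB (searched as a degenerate motif), AP-1 (TGANTCA), C/EBP (TTNNGNAA), the TATA box (TATAAA) and PU.1 (GAGGAA). Of the 32851 windows of the same length, 3.90% held the NF-kB motif, 6.75% AP-1, 36.8% C/EBP, 12.4% TATA and 23.3% PU.1. The Il1r2 start used here lies inside the gene span given above, and Il1r1 and Nlrp3 each have 1 further start that is not shown.
Il1b, minus strand, chr2:129371140-129371389: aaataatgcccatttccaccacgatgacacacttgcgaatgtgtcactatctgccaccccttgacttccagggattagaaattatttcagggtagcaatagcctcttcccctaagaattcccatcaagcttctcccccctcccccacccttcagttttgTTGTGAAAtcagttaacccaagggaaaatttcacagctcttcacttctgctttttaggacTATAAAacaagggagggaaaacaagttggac
Il1a, minus strand, chr2:129309973-129310222: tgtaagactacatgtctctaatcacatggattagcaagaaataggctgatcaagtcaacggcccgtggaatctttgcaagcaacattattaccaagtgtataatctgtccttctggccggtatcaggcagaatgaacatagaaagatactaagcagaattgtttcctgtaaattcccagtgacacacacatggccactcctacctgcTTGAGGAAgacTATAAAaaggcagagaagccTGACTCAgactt
Il1r2, plus strand, chr1:40085843-40086092: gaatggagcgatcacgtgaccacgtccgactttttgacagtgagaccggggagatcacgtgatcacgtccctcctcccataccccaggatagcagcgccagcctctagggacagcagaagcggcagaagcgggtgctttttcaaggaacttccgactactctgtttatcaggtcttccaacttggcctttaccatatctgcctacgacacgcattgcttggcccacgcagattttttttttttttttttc
Nlrp3, plus strand, chr11:59541319-59541568: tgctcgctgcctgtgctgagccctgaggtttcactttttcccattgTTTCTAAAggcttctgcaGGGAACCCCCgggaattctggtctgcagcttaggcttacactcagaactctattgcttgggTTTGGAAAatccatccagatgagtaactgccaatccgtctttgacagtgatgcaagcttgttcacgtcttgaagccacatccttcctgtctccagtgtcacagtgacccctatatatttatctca
Il1r1, plus strand, chr1:40224830-40225079: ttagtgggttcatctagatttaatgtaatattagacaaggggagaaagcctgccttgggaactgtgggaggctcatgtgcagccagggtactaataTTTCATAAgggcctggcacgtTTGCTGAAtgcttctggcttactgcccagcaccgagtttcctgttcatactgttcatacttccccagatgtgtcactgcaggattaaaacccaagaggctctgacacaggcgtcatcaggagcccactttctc
The Il1b window held a C/EBP match 91 to 84 bases before the start and a TATA match 31 to 26 bases before it. The Il1a window held an AP-1 match at 12 to 6, a TATA match at 32 to 27, and a C/EBP match at 43 to 36 that overlaps a PU.1 match at 41 to 36. Nlrp3 held an NF-kB match at 186 to 177 and C/EBP matches at 204 to 197 and 125 to 118, and Il1r1 held C/EBP matches at 154 to 147 and 133 to 126. No match was found in the Il1r2 window. A match is a description of the letters, and nothing in these data measures binding there.

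After filtering, 32053 of 34940 deposited cells were kept, between 3362 and 6822 per library. The median number of unique molecular identifiers (UMIs, each counting 1 captured transcript) per kept cell lay between 3067 and 8011 in 5 libraries and was 1347 in the KO 72 h library, which stands apart. In that library the median was 1337 in monocytes and macrophages, against 9656 to 11573.5 in the other 5, and 1074 in fibroblasts, against 8745 to 10879. Neutrophils differed less, with 1944.5 against 2135 to 3152. Every comparison with the KO 72 h library is affected by this gap, and 1217 of the 1335 cells of the largest macrophage cluster of that library came from it. Libraries shared between 3 and 14 cell barcodes per pair. Scaled to 1000000 UMIs of the library, Trpm4 itself was at 8.61, 5.55 and 4.22 in the WT libraries (SHAM, 24 h, 72 h) and at 5.86, 3.45 and 2.47 in the KO libraries. The part of the gene deleted in this allele is not given in the sources used here, so 3′ UMIs do not check the genotype.

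Cells were clustered without using the 10 genes, and clusters were named from marker genes. A class name stands for cells that resemble that type by their markers. Levels are given as CPM, the UMIs of a gene scaled to 1000000 UMIs of all genes in the same class and library. Intervals are 95% and cover counting error only. With 1 library per group there is no replicate, no test was made, and a difference beyond its interval can still be a difference between pools of mice. Values in the order WT SHAM, KO SHAM, WT 24 h, KO 24 h, WT 72 h and KO 72 h are called the 6 libraries in order.

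Over all kept cells, Il1b was by far the most abundant member with 317461 UMIs, followed by Il1r2 with 45044 and Il1rn with 25948. The inflammasome genes had 10578 (Nlrp3) and 6655 (Casp1) UMIs, and Il1rap had 7095. Il1r1 had 3821, Il18 had 3653, Il1a had 1866 and Il1rl1 had 329. The counts of different genes also depend on how well the 3′ end of each transcript is captured.

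The members fell into a neutrophil group, a monocyte and macrophage group and a stromal group. Neutrophils held 79.4%, 81.1%, 80.3%, 85.7%, 70.7% and 44.1% of all Il1b UMIs in the 6 libraries in order, and monocytes and macrophages held 14.1%, 13.9%, 13.7%, 10.1%, 15.7% and 26.6%. The decoy Il1r2 was still more concentrated, with 84.1% to 92.6% of its UMIs in neutrophils in 5 libraries and 53.4% in the KO 72 h library. Il1a, Il1rn, Il1rap and Nlrp3 also had their highest level in neutrophils among the 4 classes compared throughout, which were neutrophils, monocytes and macrophages, endothelial cells and fibroblasts. By UMIs counted, though, monocytes and macrophages held more Il1rn than neutrophils at 72 h (1018 against 989 in WT and 464 against 389 in KO mice). Il18 and Casp1 were instead counted mostly in monocytes and macrophages (62.0% to 80.8% and 56.2% to 74.7% of their UMIs). Il1r1 was counted mostly in fibroblasts, which held 49.1% to 75.8% of its UMIs. The KO 72 h library held 462 neutrophils among its kept cells and the WT 72 h library held 950, so these shares move with the cells recovered.

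**Figure D1:**
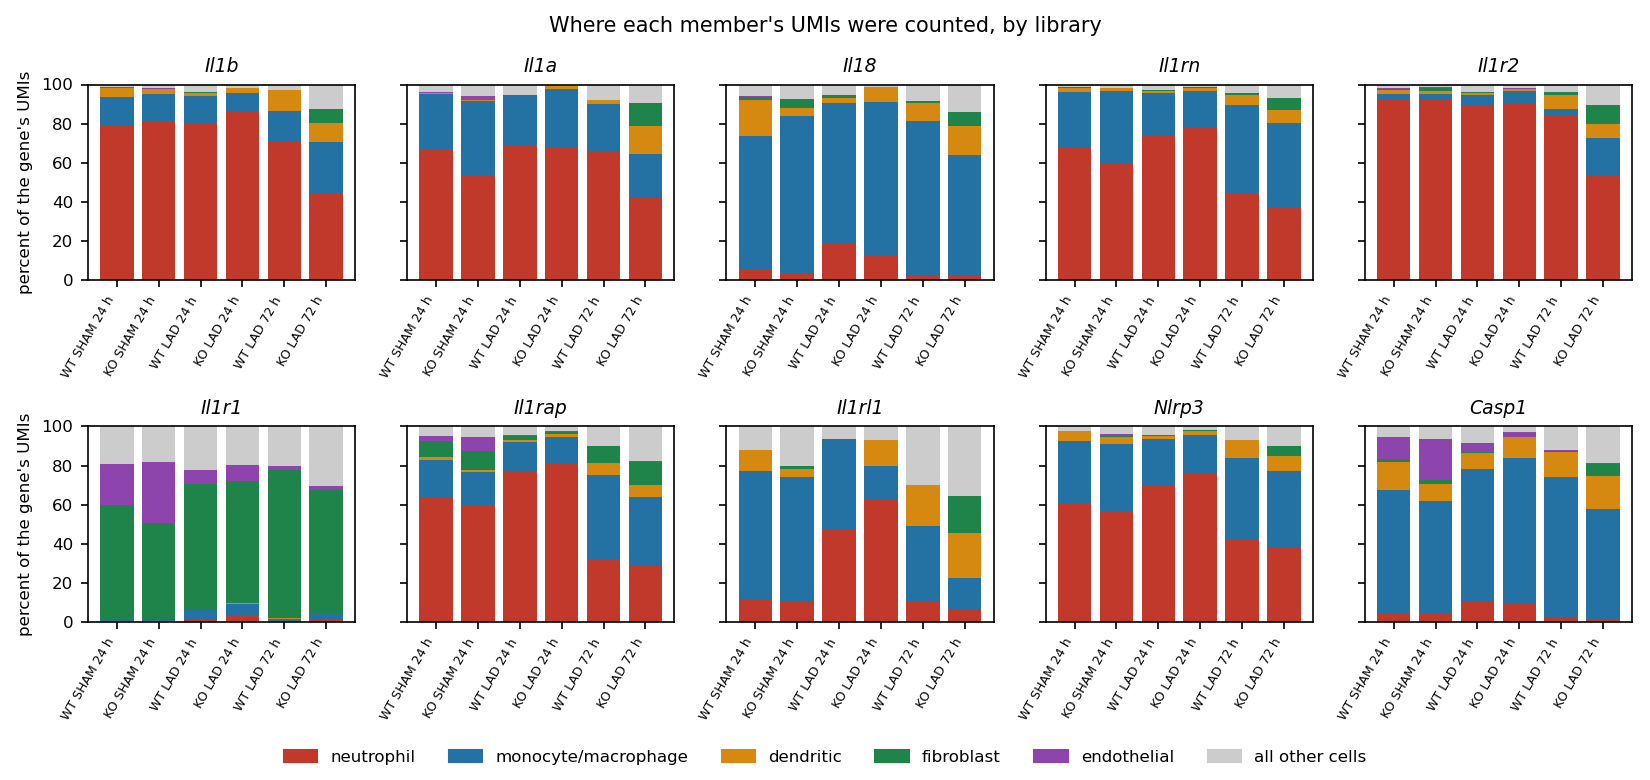
Share of each gene's UMIs counted in each cell class, as stacked bars in percent, 1 bar per library. Il1b and Il1r2 lie mostly in neutrophils, Il18 and Casp1 in monocytes and macrophages, and Il1r1 in fibroblasts, and the neutrophil share of Il1b is lowest in the KO 72 h library at 44.1%.

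Among the ligands, Il1b was at nearly the same high level in the neutrophils of every library. It stood at 13166 (13012 to 13321), 12011, 12787, 11993, 12375 and 11511 (11289 to 11736) CPM in the 6 libraries in order. After each cell was thinned to 1000 UMIs, 95.2% to 97.6% of neutrophils had at least 1 Il1b UMI (96.8% to 98.9% without thinning), SHAM hearts included. The LAD 24 h to SHAM ratio in neutrophils was 0.971 (0.957 to 0.985) in WT and 0.998 (0.983 to 1.01) in KO mice. Over all kept cells, by contrast, Il1b was at 1154, 747, 3040.3, 3629, 833 and 1151 CPM. Neutrophils made up 1147 of 3362 kept cells in the WT and 3418 of 6561 in the KO 24 h library, against 882 of 5256 and 666 of 5663 after SHAM, and the part of this in the whole-library values was not tested. The median gene of that class had a log2 ratio of -0.23 in WT and -0.19 in KO mice at 24 h and of 0.55 and 0.51 from 24 to 72 h. Relative to it, neutrophil Il1b was at 0.19 in both genotypes at 24 h and at -0.60 and -0.57 from 24 to 72 h, so that its small ratios turned above 1 at 24 h.

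In monocytes and macrophages Il1b was far lower than in neutrophils of the same library, and it did differ between conditions. It was at 473, 392.5, 1061, 741, 232 and 677 CPM in the 6 libraries in order. Both 24 h libraries were above both SHAM libraries, the WT 72 h library was the lowest of all, and the KO 72 h library was close to the KO 24 h library. The LAD 24 h to SHAM ratio was 2.24 (2.17 to 2.32) in WT and 1.89 (1.82 to 1.96) in KO mice. From 24 to 72 h the ratio was 0.219 (0.212 to 0.226) in WT and 0.913 (0.886 to 0.941) in KO mice, and the KO direction turned with the processing (log2 ratio -0.13 as given, 0.39 with cells thinned to at most 1000 UMIs). The share of cells with an Il1b UMI at 1000 UMIs per cell was 22.5%, 20.3%, 37.3%, 32.4%, 14.5% and 38.2% (46.5%, 42.7%, 64.5%, 64.6%, 32.4% and 56.4% without thinning), with 965 of 2493 KO 72 h cells too shallow to enter. In endothelial cells, taken as a class that should lack the gene, the thinned shares were 1.42%, 1.35%, 3.596%, 7.58%, 0% and 5.13% (the 0% is 0 of 125 cells with an upper 95% bound of 2.91%, and without thinning the shares were 5.29%, 3.81%, 11.9%, 18.2%, 0.769% and 9.52%), at median depths of 3366, 3391, 4051, 2761, 2521 and 2187.5 UMIs.

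Il1b was also counted in other classes, where neutrophil transcripts were counted too. After neutrophils it was highest in platelets, at 3719, 4141, 7134, 7338, 4760 and 4732 CPM in the 6 libraries in order. Neutrophil markers there summed to 25229, 18673, 73922, 116774, 21382 and 24686 CPM, and the KO 72 h library held 23 platelets. Fibroblasts had 17.3, 3.63, 108, 119, 14.0 and 547 CPM of Il1b in the 6 libraries in order. The 13 neutrophil markers, which include S100a8 and S100a9, summed to 697, 551, 1028, 1591, 230.0 and 2652 CPM in the same fibroblasts. In the KO 72 h library, Il1b UMIs per neutrophil marker UMI came to 0.206 in fibroblasts, 0.167 in T and NK cells and 0.166 in neutrophils themselves, but 0.0981 in B cells, 0.0656 in endocardial cells, 0.416 in lymphatic endothelial cells and 0.530 in dendritic cells. In the other 5 libraries in order, fibroblasts had 0.0248, 0.00658, 0.105, 0.0750 and 0.0608, so no 1 ratio held over classes or libraries. The part of neutrophil RNA in fibroblast Il1b was not tested. Fibroblasts of the KO 72 h library had 0.0933 Il1r2 UMIs per Il1b UMI, against 0.0834 in its neutrophils. In the other 5 libraries the fibroblast ratio was above the neutrophil ratio as well. It was lowest there at WT 24 h, with 0.204 (0.151 to 0.271) against 0.1899 in neutrophils. It was highest in the KO SHAM library, with 2.375 against 0.141. In the KO 72 h and WT 24 h libraries the interval of the fibroblast ratio held the neutrophil ratio. In WT SHAM fibroblasts 45.7% of the Il1b UMIs came from 1 cell. Endothelial Il1b was at 14.9, 10.6, 34.8, 71.5, 2.67 and 41.6 CPM, beside neutrophil markers at 120.0, 109, 321, 1024, 56.0 and 180.3.

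Neutrophil markers were counted in monocytes and macrophages as well, where they summed to 721, 772, 2812, 2899, 299 and 2251 CPM in the 6 libraries in order. Il1b UMIs per marker UMI came to 0.656, 0.509, 0.377, 0.256, 0.777 and 0.301 there, against 0.101, 0.0974, 0.0832, 0.0665, 0.165 and 0.166 in neutrophils. The ratio in monocytes and macrophages was above the neutrophil ratio in all 6 libraries. The part of neutrophil RNA in their Il1b was not tested. Dendritic cells had Il1b at 755, 596, 1336, 1370.3, 814 and 899.8 CPM, with 4.47 to 5.67 Il1b UMIs per marker UMI in 3 libraries, 1.36 and 1.87 in the 24 h libraries, and 0.530 in the KO 72 h library.

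**Figure D2:**
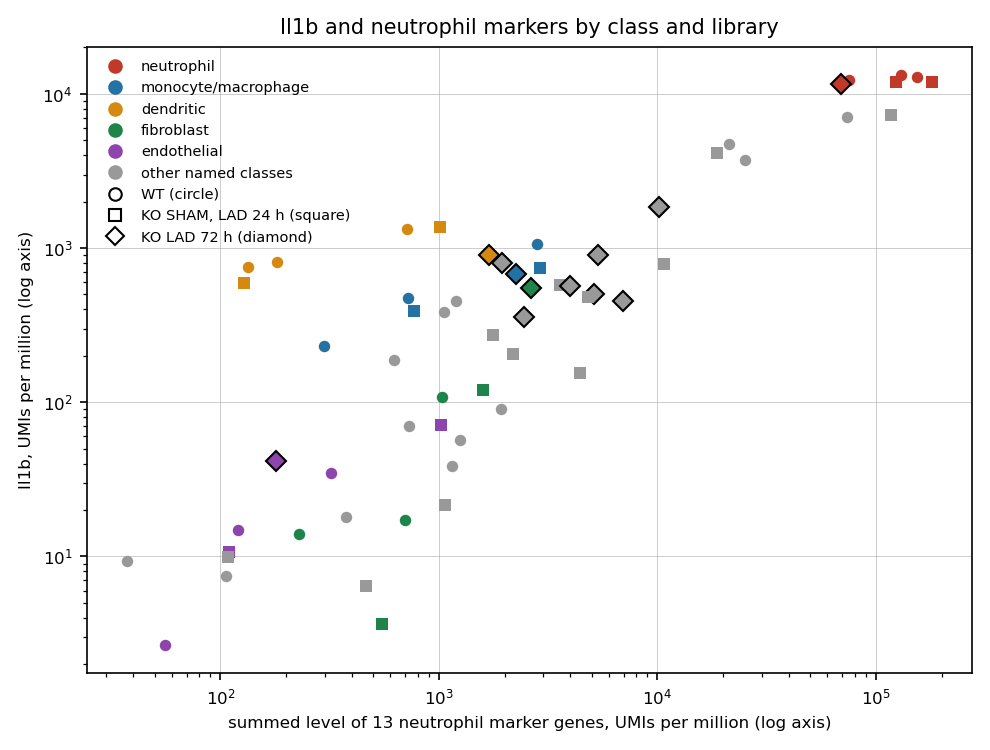
Il1b level against the summed level of 13 neutrophil markers, both in CPM on log axes, with 1 point per cell class and library. Neutrophils sit at the top right between 11511 and 13166 CPM of Il1b, and the KO 72 h fibroblasts lie at 547 with markers at 2652.

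Il1a, the other interleukin-1 ligand, was also highest in neutrophils, at far lower counts. Neutrophils had 102, 61.6, 94.7, 39.4, 44.8 and 43.7 CPM in the 6 libraries in order, from 217, 96, 394, 376, 92 and 39 UMIs. Unlike Il1b, it was lower in KO than in WT neutrophils after SHAM (ratio 0.606, 0.472 to 0.775) and at 24 h (0.416, 0.360 to 0.480), and the 72 h libraries did not differ beyond counting error (0.975, 0.652 to 1.43). From 24 to 72 h the neutrophil ratio was 0.473 (0.373 to 0.595) in WT and 1.11 (0.776 to 1.54) in KO mice. Monocytes and macrophages had 8.60, 8.43, 17.3, 9.23, 1.44 and 2.29 CPM. The 72 h values were the lowest in both genotypes, with 72 h to 24 h ratios of 0.0829 (0.0557 to 0.121) and 0.248 (0.150 to 0.392). Dendritic cells, which had more Il1b than monocytes and macrophages, had 0 to 13 UMIs of Il1a per library.

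Il18 behaved differently from both, being counted mostly in monocytes and macrophages, where it was higher at 72 h. Over all kept cells it was at 12.7, 8.09, 12.3, 18.1, 34.9 and 28.5 CPM. Monocytes and macrophages had 25.3, 24.7, 22.5, 28.6, 49.1 and 39.1, with both 72 h values above the other 4. The 72 h to 24 h ratio there was 2.18 (1.87 to 2.56) in WT and 1.37 (1.19 to 1.57) in KO mice, while the 24 h to SHAM ratios of 0.888 (0.734 to 1.07) and 1.16 (0.982 to 1.37) held 1 within their intervals. The KO 72 h to 24 h log2 ratio of 0.45 fell to 0.23 with cells thinned to at most 1000 UMIs. As a mean over cells it was 0.14. Among clusters of that class, the highest levels were 89.0 CPM of Il18 in the cluster led by the interferon-induced chemokine gene Cxcl10 and by Ccl8, and 53.4 in the cluster led by Ear2 and Plac8. Neutrophils had 4.49 to 14.1, and mesothelial cells had 76.5 in the KO 72 h library, the 1 library with at least 50 of them. Dendritic cells had 34.0, 10.6, 10.4, 23.1, 29.5 and 33.6 CPM in the 6 libraries in order, and their WT 72 h value was below their WT SHAM value.

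The antagonist gene Il1rn was highest in neutrophils like Il1b, and unlike Il1b it was lower there at 72 h. In neutrophils it was at 1015, 917, 1104, 891, 482 and 436 CPM in the 6 libraries in order. The 4 earlier libraries lay between 891 and 1104, and both 72 h libraries lay below them, with 72 h to 24 h ratios of 0.437 (0.407 to 0.468) in WT and 0.489 (0.441 to 0.542) in KO mice. Since neutrophil Il1b was level, the number of Il1rn UMIs per Il1b UMI in neutrophils was 0.0771 (0.0738 to 0.0806), 0.0764, 0.0863, 0.0743, 0.0389 and 0.0379 (0.0341 to 0.0419). Both 72 h ratios were thus below the 4 earlier ones in both genotypes.

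In monocytes and macrophages the ratio of antagonist to ligand was higher and followed no such order. Il1rn was at 84.5, 109, 161, 109, 41.8 and 50.7 CPM there. The Il1rn to Il1b ratio was 0.179, 0.279, 0.152, 0.147, 0.180 and 0.0749 (0.0680 to 0.0823). It was highest in the KO SHAM library and lowest in the KO 72 h library, where neutrophil markers in this class were at 2251 CPM against 299 in the WT 72 h library. At 1000 UMIs per cell, Il1rn was found in 16.5% (12.1 to 21.7) of WT 24 h monocytes and macrophages with an Il1b UMI and in 7.66% (5.30 to 10.6) of those without. In the other 5 libraries the share was also higher in cells with Il1b, but the intervals overlapped, as with 11.3% (8.54 to 14.5) against 9.26% (7.52 to 11.2) at KO 24 h. In neutrophils, where few cells lacked Il1b, no order held over the libraries: at WT 24 h 49.9% of cells with Il1b had Il1rn against 40.0% of cells without, and after SHAM in WT mice 42.2% against 81.0%.

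The decoy receptor gene Il1r2 was higher in neutrophils at 24 h than after SHAM in both genotypes and lower at 72 h. Neutrophils had 1339, 1689.7, 2429, 2236, 1039 and 960.2 CPM in the 6 libraries in order. Both 24 h libraries were above both SHAM libraries and both 72 h libraries were below them. The LAD 24 h to SHAM ratio was 1.81 (1.74 to 1.89) in WT and 1.32 (1.27 to 1.38) in KO mice, and the 72 h to 24 h ratio was 0.428 (0.408 to 0.448) and 0.429 (0.401 to 0.460). At 1000 UMIs per cell, 61.4%, 69.4%, 83.4%, 80.5%, 55.0% and 53.5% of neutrophils had an Il1r2 UMI. Monocytes and macrophages had far fewer, with 9.93, 8.79, 71.6, 79.0, 3.45 and 33.5 CPM, giving 24 h to SHAM ratios of 7.21 (5.86 to 8.96) in WT and 8.98 (7.09 to 11.5) in KO mice. The neutrophil markers in that class were at 721 and 772 after SHAM and at 2812 and 2899 at 24 h, and their part in this difference was not tested.

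**Figure D3:**
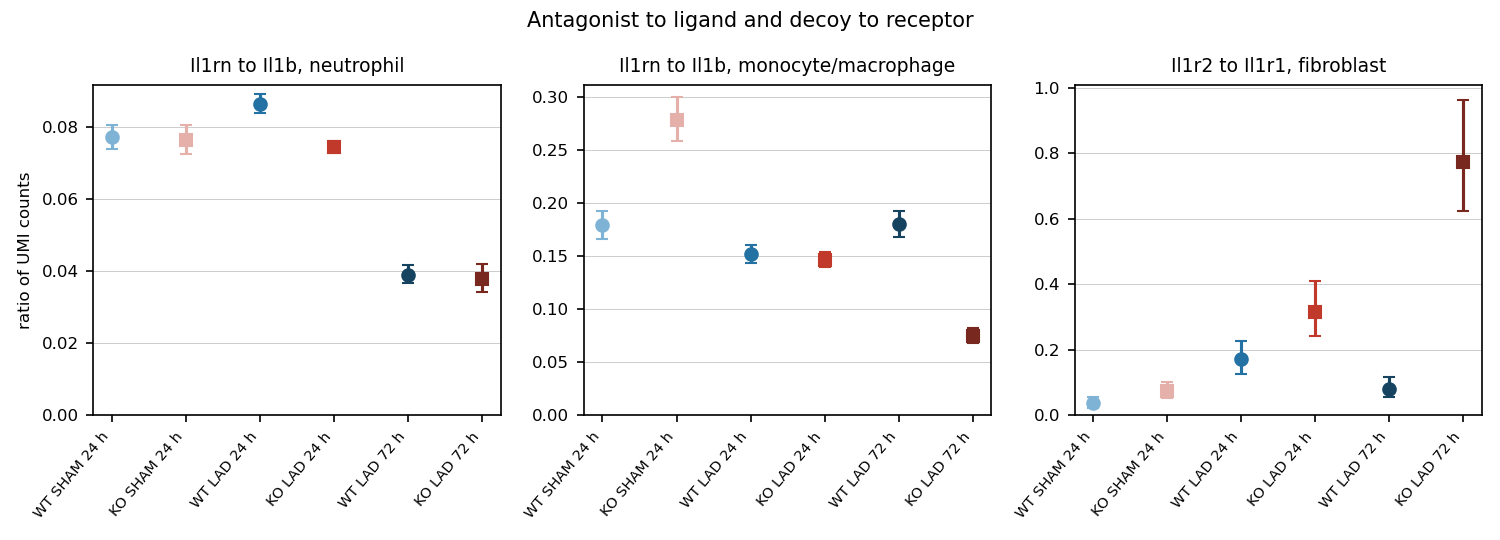
Ratios of UMI counts by library with 95% counting intervals: Il1rn to Il1b in neutrophils, Il1rn to Il1b in monocytes and macrophages, and Il1r2 to Il1r1 in fibroblasts. In neutrophils both 72 h libraries (0.0389 and 0.0379) lie below the other 4 (0.0743 to 0.0863).

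The signalling receptor gene Il1r1 was close to the reverse of its decoy. Fibroblasts had 142, 119, 129, 106, 122 and 65.9 CPM in the 6 libraries in order, and pericytes had 162, 100.5, 160.3 and 146 in the 4 libraries with at least 50 of them. Neutrophils had 1.15 to 2.24 and monocytes and macrophages 0.164 to 3.05. Smooth muscle cells had 53.7, 63.6, 72.2 and 46.1 in the SHAM and 24 h libraries, and endothelial cells had 27.7, 30.5, 18.4, 21.8, 29.4 and 32.4. Fibroblast Il1r1 did not change past counting error at 24 h (ratio 0.908, 0.792 to 1.04 in WT, and 0.889, 0.760 to 1.04 in KO mice), nor from 24 to 72 h in WT mice (0.948, 0.820 to 1.10). The KO 72 h library was lower, at 0.624 (0.514 to 0.757) of the KO 24 h and 0.539 (0.452 to 0.640) of the WT 72 h level. Fibroblast Il1r1 was lower in KO than in WT mice in the other conditions as well, at 0.837 (0.742 to 0.944) after SHAM and 0.819 (0.692 to 0.969) at 24 h. In that library 371 of the 1251 fibroblasts belonged to a cluster led by Scn7a that had 21.6 CPM of Il1r1, and in the cluster that held most fibroblasts of both 72 h libraries Il1r1 was at 118 in WT and 86.2 in KO mice.

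Decoy and signalling receptor were thus counted in different cells. In neutrophils there were 2859, 2632, 10105, 21333, 2133 and 857 Il1r2 UMIs against 3, 2, 5, 11, 3 and 2 Il1r1 UMIs in the 6 libraries in order, and the ratio with the most Il1r1 UMIs, at KO 24 h, was 1939 (1084 to 3886). In fibroblasts the ratio was 0.0365, 0.0725, 0.171, 0.315, 0.0810 and 0.774 (0.622 to 0.963). The fibroblast ratio was highest where neutrophil markers in fibroblasts were highest (1591 CPM at KO 24 h and 2652 at KO 72 h), and the part of neutrophil RNA in it was not tested.

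The accessory chain gene Il1rap followed the myeloid pattern of the decoy more than that of Il1r1. Neutrophils had 240.2, 310.1, 323, 249.2, 77.5 and 98.6 CPM in the 6 libraries in order, and both 72 h libraries lay far below the other 4. The 72 h to 24 h ratio was 0.240 (0.202 to 0.283) in WT and 0.396 (0.316 to 0.489) in KO mice. At 24 h against SHAM the genotypes went opposite ways, with 1.35 (1.21 to 1.49) in WT and 0.804 (0.729 to 0.888) in KO mice. Monocytes and macrophages had 14.2, 16.5, 31.8, 21.1, 8.88 and 11.6 CPM. Fibroblasts, which carry Il1r1, had 15.8, 17.7, 15.6, 15.8, 12.5 and 11.8, and no fibroblast comparison of Il1rap differed from 1 beyond its counting interval.

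Il1rl1 was sparse, with 110, 50, 32, 59, 47 and 31 UMIs in the 6 libraries in order. Of these, 72, 32, 15, 10, 18 and 5 were in monocytes and macrophages, where 1 WT SHAM cell held 27 of the 72, and 13, 5, 15, 37, 5 and 2 were in neutrophils. That class had 6.81 and 3.91 CPM after SHAM in WT and KO mice and 1.76, 0.549, 0.740 and 0.546 after ligation, while neutrophils had 6.09, 3.21, 3.61, 3.88, 2.44 and 2.24 in the 6 libraries in order. The neutrophil level was above that of monocytes and macrophages in all 4 libraries after ligation. Only at KO 24 h were the intervals apart (2.73 to 5.34 against 0.263 to 1.01 CPM). The cluster led by Mgl2, Lyve1 and Folr2, genes of resident macrophages, had 17.5 CPM of Il1rl1 over all libraries from 75 UMIs. It had 20.5 in the WT SHAM, 17.5 in the KO SHAM and 16.1 in the KO 24 h library. The cluster led by Ms4a7 and Lgmn had 17.4 from 33 UMIs. Of its cells, 1217 came from the KO 72 h library, whose monocytes and macrophages held 5 Il1rl1 UMIs in all. Most of the 33 thus came from its few WT SHAM and WT 24 h cells. Whether the WT SHAM cell with 27 UMIs was among them was not checked. Endothelial cells, pericytes and smooth muscle cells had 0 UMIs in every library, and 3 counts in the 2757 endothelial cells of the KO SHAM library would be 0.274 CPM. T and NK cells had 5.05, 5.80, 14.1 and 9.11 in the 4 libraries after ligation, which held at least 50 such cells. These levels rest on 2, 2, 6 and 3 UMIs, and all 3 at KO 72 h were in 1 cell. At WT 24 h and KO 24 h they were below the level that 3 counts would give (7.57 and 8.70 CPM).

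The inflammasome sensor gene Nlrp3 was a neutrophil transcript and the protease gene Casp1 a macrophage and dendritic cell transcript. Nlrp3 in neutrophils was at 369, 345, 420.4, 320.1, 237 and 276 CPM in the 6 libraries in order, lowest at 72 h in both genotypes. In monocytes and macrophages Nlrp3 was at 39.0, 39.7, 72.0, 42.8, 20.02 and 28.2, with a 24 h to SHAM ratio of 1.85 (1.63 to 2.10) in WT and 1.08 (0.946 to 1.23) in KO mice. Casp1 was at 53.0, 57.4, 48.3, 54.5, 64.3 and 52.7 in the same cells, and at 58.8 to 70.6 in dendritic cells, 13.7 to 23.1 in endothelial cells and 12.8 to 19.9 in neutrophils. Casp1 stayed within 2-fold in neutrophils and in monocytes and macrophages in all 7 comparisons, and Nlrp3 passed it there once, in monocytes and macrophages of WT mice from 24 to 72 h (0.278, 0.246 to 0.314). Within the monocyte and macrophage class, Casp1 was highest at 92.3 CPM in the cluster led by Ear2 and Plac8 and at 89.7 in the cluster led by Cxcl10 and Ccl8, the same clusters that led for Il18.

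**Figure D4:**
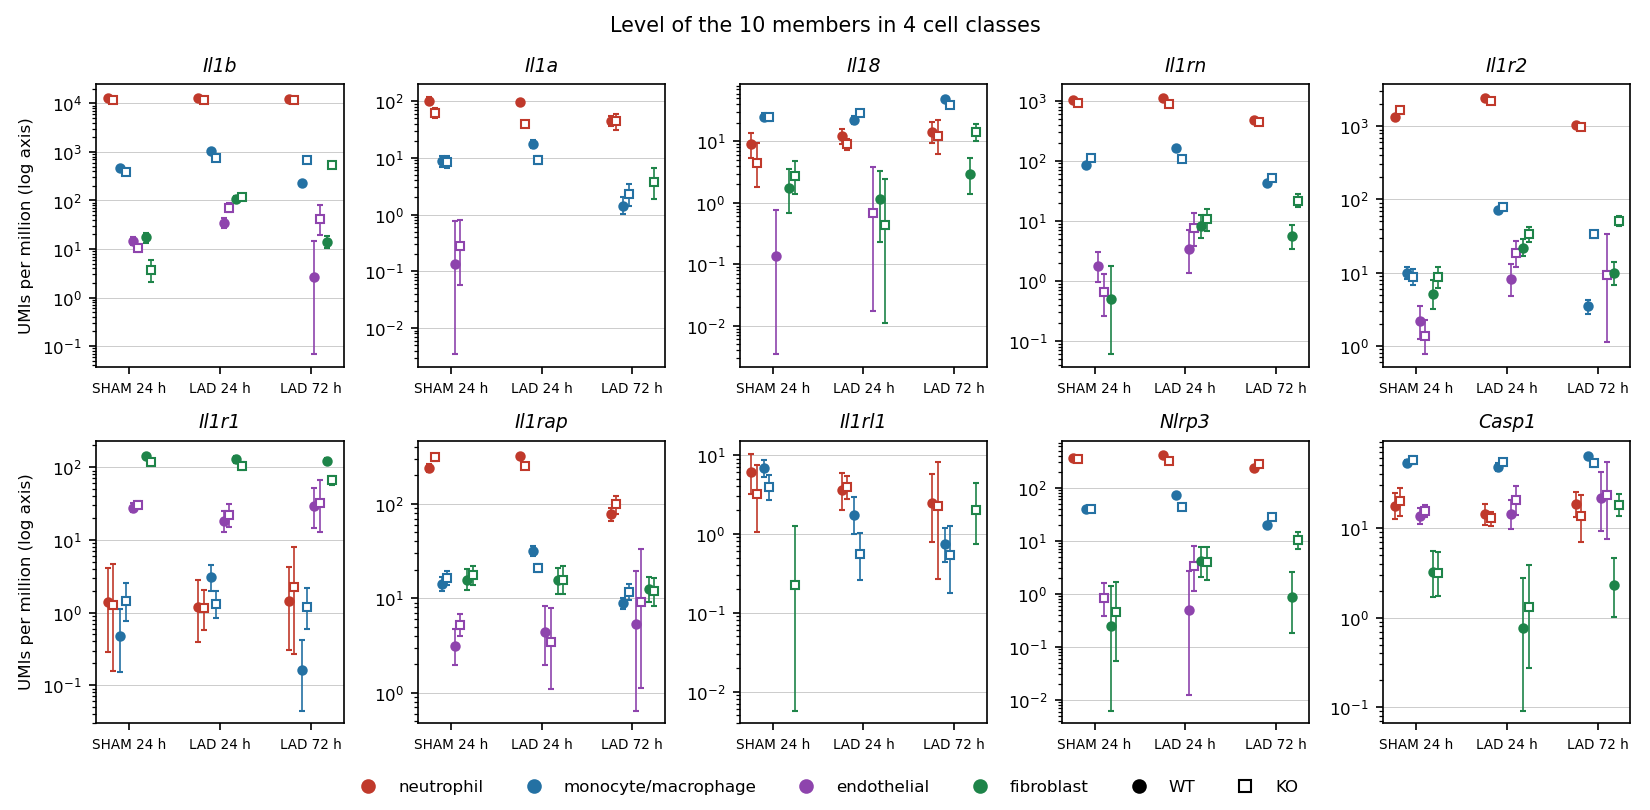
Level of each of the 10 genes in CPM (log axis) by condition in neutrophils, monocytes and macrophages, endothelial cells and fibroblasts, for WT and KO libraries, with 95% counting intervals. Neutrophil Il1b is level across conditions, while neutrophil Il1rn, Il1r2 and Il1rap are lowest at 72 h. Libraries with 0 UMIs are not drawn.

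Neutrophil clusters differed in the ratio of these genes. The cluster led by Tnf, the tumour necrosis factor gene, and Acod1 had the highest levels over all libraries of Il1b (15522 CPM), Il1rn (1729.5), Il1a (141) and Nlrp3 (469). The cluster led by Cstdc4 and Cd177, which held most neutrophils of the 24 h libraries, had the highest Il1r2 (2529) with Il1b at 11589.5 and Il1rn at 901. In the cluster led by Siglecf, most frequent at 72 h, the levels were 11329 for Il1b, 471 for Il1rn and 1509.8 for Il1r2. The cluster led by Retnlg and Ly6g, the gene of a common neutrophil surface marker, had the lowest Il1rn (263) and Il1a (10.1), and the cluster led by interferon-induced Ifit genes had 48.1 CPM of Il18. SHAM neutrophils were mostly in the clusters led by Tnf and Siglecf, 24 h neutrophils in the cluster led by Cstdc4 and 72 h neutrophils in the cluster led by Siglecf, and class values mix them.

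Lower Il1rn, Il1r2 and Il1rap at 72 h was also seen within clusters. In the Siglecf cluster Il1r2 was at 1710.5, 1933, 1923, 2028, 1006 and 955 CPM, and Il1rn was at 549, 567, 542, 667, 302 and 284. Il1rap there was at 254, 311, 145, 193, 57.6 and 69.6. The 72 h values were the lowest for all 3 genes in this cluster. In the Tnf and Acod1 cluster Il1rn was at 1808, 1723, 2106, 1683, 1345 and 1113 and Il1rap at 212, 287, 260, 220, 76.4 and 161, again lowest at 72 h. Il1r2 there was at 1153, 1570.4, 1867, 1764, 1119 and 934, and the WT 72 h value was close to the WT SHAM value.

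**Figure D5:**
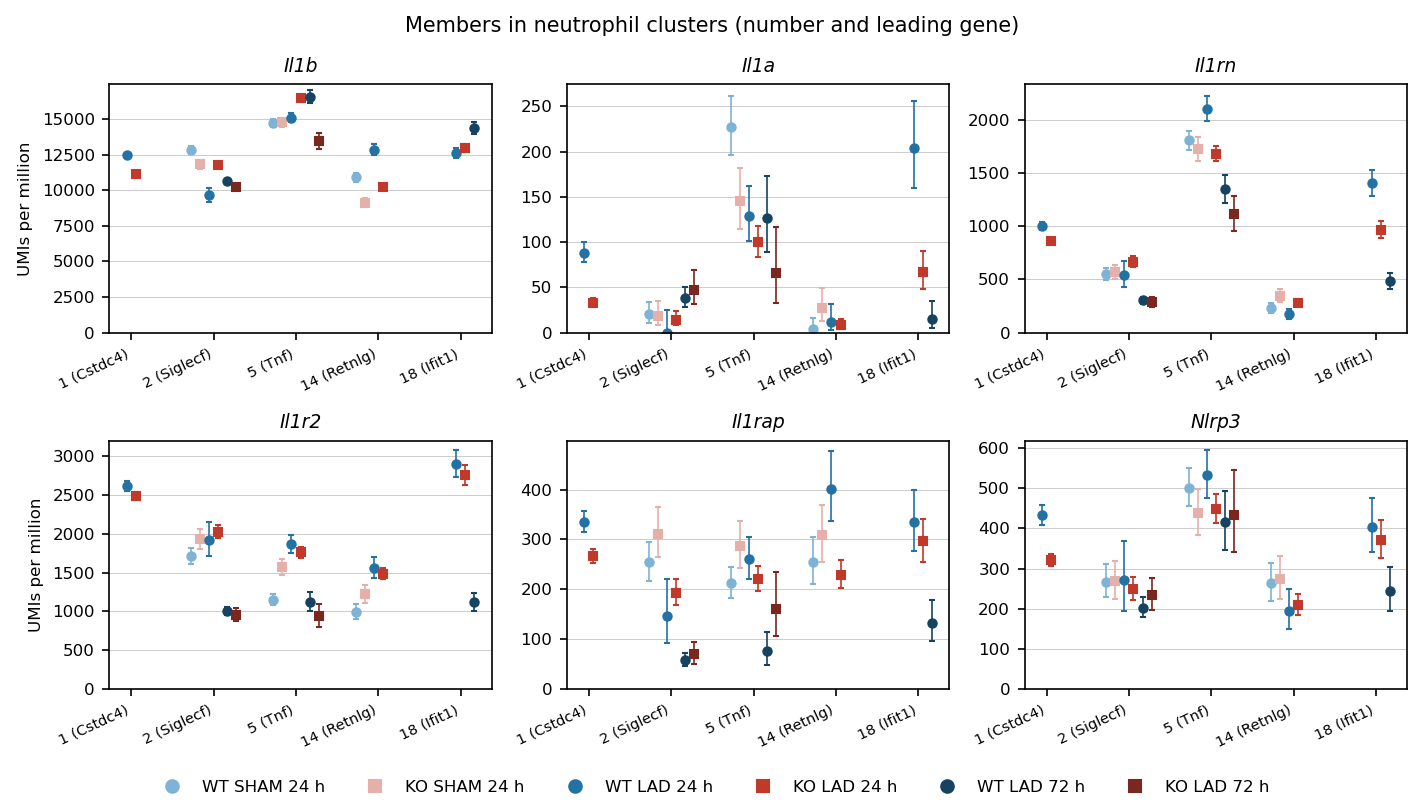
Levels of members in CPM in the neutrophil clusters, each labelled by its number and leading gene, with 1 point per library and 95% counting intervals. Over all libraries Il1b lies between 10810.2 and 15522 in each cluster, and Il1rn is highest in cluster 5, led by Tnf.

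For each comparison of 2 libraries, a gene in a class was compared where both libraries had at least 100 cells of the class and 50 UMIs of the gene together, and was counted when its level differed by more than 2-fold. A pair could reach 50 UMIs through 1 library alone, for members and for all genes alike. In WT mice 24 h after ligation against SHAM, 7 member and class pairs were higher and 1 was lower of 24 (33.3%), against 7.55% of all gene and class pairs (3.27% higher and 4.29% lower). The higher ones were Il1b, Il1a, Il1r2 and Il1rap in monocytes and macrophages, Il1b and Il1r2 in fibroblasts, and Il1b in endothelial cells (ratio 2.33, 1.71 to 3.16). The lower one was Il1rl1 in monocytes and macrophages (0.258, 0.137 to 0.455), where 1 SHAM cell weighed heavily. Fibroblast Il1b had a ratio of 6.25 (4.80 to 8.24). Neutrophil markers were at 321 CPM at 24 h and 120.0 after SHAM in endothelial cells, and at 1028 and 697 in fibroblasts. Their part in these ratios was not tested. None of the 8 members compared in neutrophils passed 2-fold, where 13.8% of all genes did.

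In KO mice the same comparison gave 4 higher and 0 lower pairs of 24 (16.7%), against 8.0% of all pairs (2.43% higher and 5.57% lower). These were Il1r2 in monocytes and macrophages, Il1b in endothelial cells (6.74, 5.13 to 8.86), and Il1b (32.9, 19.9 to 58.3) and Il1r2 (3.87, 2.59 to 5.87) in fibroblasts. Neutrophil markers were at 1024 CPM at 24 h and 109 after SHAM in endothelial cells, and at 1591 and 551 in fibroblasts. Their part in these ratios was not tested. Il1b in monocytes and macrophages stayed under 2-fold at 1.89, and Il1rn there was level (0.993, 0.917 to 1.08) where WT mice had 1.91 (1.75 to 2.07). The median log2 ratio of the members in monocytes and macrophages was 0.93 in WT and 0.17 in KO mice, beside -0.12 and -0.27 for all genes compared.

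From 24 to 72 h in WT mice, 1 pair was higher and 13 were lower of 21 (66.7%), against 21.0% of all pairs (11.4% higher and 9.55% lower). Lower were Il1a, Il1rn, Il1r2 and Il1rap in neutrophils, where the median gene was 0.55 higher on the log2 scale, and Il1b, Il1a, Il1rn, Il1r2, Il1rap and Nlrp3 in monocytes and macrophages. Il1b was lower in endothelial cells and fibroblasts as well, and Il1r2 in fibroblasts. Neutrophil markers were at 56.0 CPM at 72 h and 321 at 24 h in endothelial cells, and at 230.0 and 1028 in fibroblasts. Il18 in monocytes and macrophages was the 1 higher pair. Il1r2 in monocytes and macrophages had the most extreme ratio, 0.0482 (0.0379 to 0.0607).

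From 24 to 72 h in KO mice, 3 pairs were higher and 6 lower of 22 (40.9%), against 19.7% of all pairs (14.3% higher and 5.47% lower). Il1rn, Il1r2 and Il1rap in neutrophils and Il1a, Il1rn and Il1r2 in monocytes and macrophages were lower, and each of these was also past 2-fold lower in WT mice. The higher pairs were all in fibroblasts, where the KO 72 h library is shallow: Il1b (4.59, 4.03 to 5.23), Il1rn (2.06, 1.27 to 3.44) and Casp1 (13.9, 4.50 to 69.4). Casp1 in fibroblasts turned to a log2 ratio of -0.31 with cells thinned to at most 1000 UMIs.

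Between genotypes after SHAM, 1 of 24 pairs (4.17%) passed 2-fold, against 1.43% of all pairs (0.944% higher and 0.489% lower), namely Il1b in fibroblasts (0.210, 0.114 to 0.365), where 1 WT cell held 45.7% of the UMIs. Il1r2 in KO neutrophils was 1.26 (1.20 to 1.33) times the WT level and Il1rap 1.29 (1.14 to 1.46) times. At 24 h after ligation, 1 pair was higher in KO and 2 were lower of 25 (12.0%), against 2.53% of all pairs (0.975% higher and 1.55% lower). Endothelial Il1b was higher (2.06, 1.51 to 2.82), and Il1a in neutrophils and Il1r1 in monocytes and macrophages (0.433, 0.238 to 0.784) were lower. Neutrophil markers in endothelial cells were at 1024 CPM in the KO and 321 in the WT 24 h library. Their part in endothelial Il1b was not tested. Most other members were lower by less than 2-fold in KO monocytes and macrophages at 24 h: Il1b at 0.699 (0.680 to 0.718), Il1a at 0.532 (0.424 to 0.668), Il1rn at 0.675 (0.630 to 0.723), Il1rap at 0.664 (0.567 to 0.779) and Nlrp3 at 0.595 (0.534 to 0.662) of the WT level. The median log2 ratio of all 9 members compared in that class was -0.57, beside -0.13 for all genes. Il18 (1.27, 1.07 to 1.51), Casp1 (1.13, 1.01 to 1.27) and Il1r2 (1.10, 1.003 to 1.21) were on the other side of 1.

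At 72 h, 7 pairs were higher in KO and 0 lower of 22 (31.8%), against 6.16% of all pairs (4.6% higher and 1.56% lower), and all 7 lay outside neutrophils. None of the 7 members compared in neutrophils passed 2-fold (1.68% of all genes did), with ratios of, for example, 0.930 (0.909 to 0.952) for Il1b, 0.904 (0.802 to 1.02) for Il1rn and 0.924 (0.852 to 1.0005) for Il1r2. In monocytes and macrophages Il1b was 2.91 (2.81 to 3.02) and Il1r2 9.71 (7.60 to 12.5) times the WT level. In fibroblasts Il1b was 39.1 (29.4 to 53.3), Il1r2 5.16 (3.53 to 7.72), Il1rn 3.91 (2.31 to 6.91), Il18 4.88 (2.41 to 10.9) and Casp1 7.84 (3.71 to 19.1) times as high. Neutrophil markers were at 2251 against 299 CPM in monocytes and macrophages and at 2652 against 230.0 in fibroblasts of the same libraries.

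The KO to WT difference in macrophage Il1b at 72 h was not the same in every cluster. In the cluster led by Ear2 and Plac8, Il1b was at 787 CPM in KO and 775 in WT mice, with neutrophil markers at 925 and 661. In the cluster led by Ccl2 and Ccl7 it was at 691 against 302, with markers at 910 and 257. In the cluster led by Fcrls and Ms4a7 Il1b was at 258 against 77.4, with markers at 851 and 140. The largest gap, 1506 against 257, was in the cluster that came almost wholly from the KO 72 h library, where markers were at 9422 against 147 and the KO cells had a median of 816 UMIs. With cells under 1500 UMIs left out, the log2 ratio of KO to WT over the class at 72 h was 1.15 for Il1b (1.54 with them) and 2.33 for Il1r2 (3.28 with them).

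A list of 42 other genes of the pathway was compared in the same way: 7 ligands and binding proteins, 6 receptors, 7 adaptors, 12 inflammasome genes and 10 genes known to respond to interleukin-1. In WT mice at 24 h against SHAM, 18 list pairs were higher and 4 lower of 108 (20.4%), against the 7.55% of all pairs. In fibroblasts all 6 list genes that were higher belonged to the responsive group, as did 5 of the 7 in monocytes and macrophages. The list was chosen with earlier results of these data known, so the make-up of its groups is not independent of these values. How many genes of each group were compared is not given here. Ptgs2, which encodes the inducible prostaglandin synthase, was at 3.95 CPM in WT SHAM and at 135 in WT 24 h fibroblasts (ratio 34.1, 20.7 to 60.3). The chemokine gene Cxcl2 was at 12.8 and 317 and Cxcl1 at 130 and 523. The cytokine gene Il6 (6.63-fold), Ccl2 (9.47-fold) and the feedback inhibitor Tnfaip3 (3.31-fold) were also higher there. In KO fibroblasts the ratios were 34.3 for Cxcl2, 8.42 for Ptgs2, 7.67 for Cxcl1, 3.40 for Ccl2 and 3.38 for Il6, with 12 pairs higher and 5 lower of 108 over the 4 classes (15.7%, against 8.0% of all pairs, with 2.43% higher and 5.57% lower). Il33, the ligand of ST2, was lower in KO fibroblasts at 24 h (50.8 CPM against 116 after SHAM, ratio 0.437).

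In monocytes and macrophages the list as a whole moved less than the members. Its median log2 ratio of 24 h to SHAM was 0.19 in WT and -0.09 in KO mice, beside 0.93 and 0.17 for the members. From 24 to 72 h the list median in that class was -0.42 in WT and 0.03 in KO mice, beside -1.90 and -0.73. In WT mice at 24 h, Ptgs2 (5.58-fold), Il6 (4.80), Cxcl1 (4.30), Cxcl2 (3.74), Il1f9 (3.62), Il18rap (2.75) and Ccl2 (2.48) were higher there. Il1f9, the symbol in the files for the interleukin-36 gamma gene, had a ratio of 17.5 in the KO class. From 24 to 72 h, 9 list pairs were higher and 28 lower of 101 in WT (36.6%, against 21.0% of all pairs) and 10 and 16 of 87 in KO mice (29.9%, against 19.7%). Il18bp, which encodes the secreted inhibitor of interleukin-18, was higher at 72 h in monocytes and macrophages, at 17.3 CPM against 3.16 at 24 h in WT (ratio 5.47) and with a ratio of 3.54 in KO mice, in the class where Il18 was higher too. Il6 in that class was at 0.0160 of its 24 h level in WT and 0.0744 in KO mice.

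Between genotypes, 3 list pairs were higher and 1 lower of 104 after SHAM (3.85%, against 1.43% of all pairs), 4 and 6 of 103 at 24 h (9.71%, against 2.53%) and 8 and 4 of 80 at 72 h (15.0%, against 6.16%). At 24 h KO monocytes and macrophages had Il6 at 10.3 against 43.6 CPM in WT (0.236, 0.197 to 0.282), with Cxcl1 at 0.265, Tnfaip3 at 0.460 and Nfkbiz, an inducible NF-kB cofactor, at 0.478 of the WT level. KO fibroblasts at 24 h had Ptgs2 at 0.397 and Nfkbiz at 0.418 of the WT level. At 72 h Nfkbiz at 2.14 and Tnfaip3 at 2.12 times the WT level were higher in KO monocytes and macrophages, as were Ptgs2 at 3.71, Cxcl2 at 2.89 and, under 2-fold, Cxcl1 at 1.88 (1.22 to 2.89), in the library where cells were shallow and neutrophil markers higher. Il6 had too few UMIs there to be compared. KO fibroblasts at 72 h had Cxcl2 at 32.5 times the WT level, but Il6 at 0.138, Cxcl1 at 0.219, the matrix protease gene Mmp3 at 0.257 and Il33 at 0.471 of it.

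Across the 61 combinations of class and library with at least 50 cells, the genes most like Il1b were Clec4e, Cd300lf and Ccr1 (Pearson r of log2 levels 0.953, 0.949 and 0.949), all known from myeloid cells. The nearest gene to Il1rn was Nlrp3 (0.916) and the nearest to Il1r2 was Il1b (0.925). Those nearest to Nlrp3, Il1r1 and Casp1 were Clec5a (0.937), Farp1 (0.915) and Crybg1 (0.880). For Il18, Il1rap, Il1rl1 and Il1a they were Gm36161 (0.855), Neat1 (0.850), Spn (0.820) and Gm28192 (0.811). These correlations are descriptions over 12953 genes in units that share libraries and depth.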

How the data were processed

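Counts were UMIs per gene and cell from 6 libraries of pooled live non-cardiomyocytes, prepared with 10x 3' chemistry. The deposited values are whole UMI counts made by the authors with Cell Ranger 6.0.0 against mm10, per the file headers and the submitters' processing notes; the gene annotation behind them is not given in the sources used here. Deposited totals were 34691228, 34691519, 23180056, 40501671, 45649061 and 20995280 UMIs (WT SHAM, KO SHAM, WT 24 h, KO 24 h, WT 72 h, KO 72 h).

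Cells with at least 200 genes and at most 20% mitochondrial UMIs were kept. The automatic doublet threshold marked only 0 to 46 cells per library, so the highest Scrublet scores were removed instead at 0.8% per 1000 cells, 1708 cells in all. Cells of all libraries were clustered together (scanpy 1.11.5, Leiden 0.10.2, 2000 variable genes without the 10 genes and the pathway list, 30 components, 20 neighbours, resolution 1) into 38 clusters, and 15 classes were named from marker genes. The order in which marker evidence was weighed was set after the clusters were seen, and 4 clusters (2103 cells) stayed unnamed. In neutrophils 12 of 13 markers were found in at least 10% of the cells, in monocytes and macrophages 17 of 20, in endothelial cells 12 of 12 and in fibroblasts 12 of 12.

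Counts were summed per class and library and divided by all UMIs of the class. Poisson intervals of levels, Clopper-Pearson intervals of shares and conditional intervals of ratios are exact, at 95% (scipy 1.17.1). Where 1 library had no UMI, its count was set to the floor of 3. Computations were tested on simulated data. All 10 genes are named. Genes of the pathway list are named only where past 2-fold with 50 UMIs over the pair, and the 3 genes most like each member by correlation were computed from log2(level + 1). The members and lists were chosen with earlier results of these data known. Alternatives were other resolutions, no doublet removal, a limit of 10% mitochondrial UMIs, at least 10 UMIs per pair, leaving out cells under 1500 UMIs, thinning, means over cells, the members in clustering and ratios relative to the median gene.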

Additional observations from a re-analysis of the deposited data

Results flagged for a closer look

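For 3 pairs of member and class, the WT and KO libraries lay on opposite sides of equality in the same contrast. With 1 library per group the difference was not tested. Neutrophil Il1rap had a log2 ratio of LAD 24 h to SHAM of 0.43 in WT and -0.32 in KO mice, in a class whose median gene had -0.23 and -0.19. Fibroblast Il1b had a log2 ratio of 72 h to 24 h of -2.95 in WT and 2.20 in KO mice, beside neutrophil markers in the same cells at 1028 and 230.0 CPM in WT and at 1591 and 2652 in KO mice at 24 and 72 h. Fibroblast Il1r2 had a log2 ratio of 72 h to 24 h of -1.15 in WT and 0.62 in KO mice beside the same marker values.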

How the results depend on the processing

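No paired analysis was possible because each group is 1 library. With cells thinned to at most 1000 UMIs, the number of member and class pairs past 2-fold was 3 for WT 24 h against SHAM (8 as reported), 8 for WT 72 h against 24 h (14), 5 for KO 72 h against 24 h (9), 0 for KO against WT after SHAM (1) and 1 at 24 h (3). With at least 10 UMIs over the pair it was 13 for WT and 12 for KO 24 h against SHAM (4 as reported for KO), 3 for KO against WT after SHAM and 6 at 24 h, since more pairs were compared. Without doublet removal it was 8 for KO 24 h against SHAM. Relative to the median gene it was 11, 6, 14, 9, 1, 3 and 7 in the 7 comparisons as ordered in the text. For thinned cells, neither the number of pairs compared nor the share of all genes past 2-fold is given here. Thinning removes UMIs, so the lower counts with thinned cells cannot separate smaller ratios from fewer pairs compared.

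Values that turned were Il1r2 in monocytes and macrophages from 24 to 72 h in KO mice as a mean over cells (log2 ratio 0.13), and with thinned cells Casp1 in KO fibroblasts from 24 to 72 h (-0.31) and Il18 in fibroblasts of KO against WT mice at 72 h (-1.15). The cause was not tested. Of 162 single ratios, thinning moved 74, means over cells 34, the median gene 34, no doublet removal 28 and leaving out shallow cells 10.

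The Il1rn to Il1b ratio in monocytes and macrophages at resolution 0.5 was 0.160 (WT SHAM), 0.137 (KO 24 h), 0.151 (WT 72 h) and 0.0679 (KO 72 h). Without doublet removal it was 0.167 (WT 24 h), 0.138 (KO 24 h) and 0.150 (WT 72 h), and without cells under 1500 UMIs 0.0935 (KO 72 h). The fibroblast Il1r2 to Il1r1 ratio was 0.312 (WT 24 h) and 0.487 (KO 24 h) without doublet removal and 0.609 (KO 72 h) without cells under 1500 UMIs.

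The percentage of Il1b UMIs in neutrophils at resolution 0.5 was 80.2 (WT SHAM), 82.2 (KO SHAM), 83.3 (WT 24 h), 86.7 (KO 24 h) and 71.9 (WT 72 h). At resolution 2 it was 79.0 (WT SHAM), 80.0 (KO SHAM) and 85.3 (KO 24 h). Without doublet removal it was 72.9, 74.7, 77.2, 81.2, 66.7 and 42.7 in the 6 libraries in order. Without cells under 1500 UMIs it was 78.9 (WT SHAM), 80.5 (KO SHAM), 69.6 (WT 72 h) and 52.4 (KO 72 h). Thinned to 500 UMIs, 95.6%, 95.6%, 93.9%, 92.6%, 90.6% and 92.2% of neutrophils and 15.5%, 13.1%, 27.6%, 22.5%, 9.36% and 34.4% of monocytes and macrophages had Il1b.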

Other observations

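The T and NK class held 11 cells with an Il1rl1 UMI over all libraries. Of these, 9 had Gata3, 9 had Il7r, 7 had Rora and 4 had Kit, 1 had Cd3e, a gene of the T cell receptor complex, and 0 had Areg. Among the 458 other cells of that class, 10.0% had Gata3, 45.2% had Il7r, 5.68% had Rora, 0.655% had Kit, 45.9% had Cd3e and 0.437% had Areg. Gata3, Il7r, Rora and Areg are known from type 2 innate lymphoid cells, which carry ST2. The cells were chosen by the gene itself, and no test was made.

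Fibroblast clusters differed in Il1r1. Over all libraries it was at 132, 134, 107 and 93.1 CPM in 4 clusters and at 20.8 in the cluster led by Scn7a. Of the 396 cells of the Scn7a cluster, 371 came from the shallow KO 72 h library, with a median of 1187 UMIs. Of the 960 cells of the cluster at 107, 848 did, with a median of 1025. Cluster and library therefore cannot be told apart in the Scn7a value. The cluster led by Cxcl5 and Cxcl1, of which 58 and 68 of 179 cells came from the WT and KO 24 h libraries, had Il1r1 at 135 in the WT and 110 in the KO 24 h library, with Il6 at 63.9 and 76.3 and Ptgs2 at 265 and 83.3 CPM.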
